A study of Canis lupus familiaris with 7 samples.

Results

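The genes *PECAM1*, *CDH5*, *KDR*, *FLT1*, *TEK*, *TIE1*, *ANGPT1*, *ANGPT2*, *VWF* and *EMCN* mark the endothelium of blood vessels or belong to the angiopoietin and VEGF receptor systems that act on it. They were chosen by symbol, and all 10 were found among the 24580 genes of the table; the adenylate cyclase *ADCY4*, which is expressed in endothelium, was set beside them for context. RNA from dogs was sequenced from 4 non-tumor samples (N1, N3, N8 and N9) of bone that was grossly non malignant and from 3 samples (T1, T3 and T10) of osteosarcoma (OSA), a malignant tumor of bone. The tissue came from amputations or was taken straight after euthanasia, was kept in RNAlater, and the diagnosis of the tumors was made by pathologists. The labels describe the non-tumor bone as adjacent to the tumor and matched, but do not say whether equal numbers in the sample names (N1 and T1, N3 and T3) stand for the same dog. Breed, age and prior treatment of these dogs are not given in the sources used here. Whether each sample came from a separate dog is not stated either, so p-values measure the spread between these samples alone. The purpose of the comparison was to find genes whose expression differs between OSA tumor and non-tumor tissue.

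Endothelial cells line blood vessels and are held to each other by VE-cadherin (*CDH5*) and PECAM1. VEGF-A, secreted by surrounding cells, acts on them through the receptor KDR and is also bound by FLT1, while angiopoietin 1 from perivascular cells activates the receptor TEK (also called TIE2) and holds vessels in a quiet, stable state. Angiopoietin 2, released by endothelial cells themselves, competes with angiopoietin 1 at TEK, and TIE1 is a partner receptor of TEK without a well established ligand of its own. In bone, vessels lie close to forming bone and marrow, and OSA is known as a vascular tumor that spreads mainly through the blood to the lung.

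All 10 genes had a lower fitted mean in OSA tumor than in non-tumor, and *TEK*, *CDH5* and *TIE1* passed the threshold of the comparison. *TEK* had the largest of these log2 fold changes, at 3.78 to 22.4 FPKM in non-tumor samples and 0.81 to 3.13 FPKM in OSA tumor. *CDH5* and *TIE1* were low in T3 and T10, and T1 lay within the non-tumor range for both. *VEGFA*, the ligand of KDR, moved the other way and was higher in every tumor sample than in any non-tumor sample.

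FPKM are fragments scaled to transcript length and to the number of mapped fragments, so levels are per length and genes can be set beside each other. Fold changes are differences of mean log2(FPKM + 1), tumor minus non-tumor, from limma fitted to the 13507 genes whose mean reached 1 FPKM; since 1 FPKM is added, they understate the change of low genes. A gene passed, or was called, when it differed by 1 or more on the log2 scale in either direction and its unadjusted p was under 0.05, the kind of threshold the study used. By this rule 926 genes (6.86%) differed, 483 (3.58%) of them lower and 443 (3.28%) higher in OSA tumor. No gene had a Benjamini-Hochberg adjusted p under 0.05 in limma, where 927 genes had an unadjusted p under 0.05 and the smallest adjusted p was 0.693. The exact permutation test over the 35 ways to divide the 7 samples into 4 and 3 cannot give a two-sided p under 0.0571. All 10 endothelial and angiopoietin genes passed the filter with a mean of at least 1 FPKM in both groups, 3 of them (30%) were called lower against 3.58% of all genes tested, and none was called higher.

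The samples differed in tissue makeup. The 11 skeletal muscle markers summed to 77410 FPKM in N8 and 53359 FPKM in N9, to 1314 in N3 and 75.1 in N1, and to between 4.73 and 8.12 FPKM in the tumors. Erythroid markers summed to 2971 FPKM in N3 and 4432 in N8, against 12.3 in N1, 265 in N9 and at most 81.7 in a tumor. Of the osteoblast markers, *SP7*, a transcription factor that defines the lineage, reached 99.4 FPKM in N1 but only 1.26 FPKM in N3, 0.0833 FPKM in N8 and 0.702 FPKM in N9, although all of these are labelled bone. The whole list summed to 1540 FPKM in N1 and 1273 in N3, and to 115 in N8 and 356 in N9. The summed FPKM of a sample ran from 539648 (N1) to 1752340 (N8), and the fragments behind 1 FPKM from 0.547 (N8) to 1.45 (T10) times those of N1, so that low values were least precise in N8. Calls of the 10 genes that changed when single samples, or N8 and N9, were left out are described with each gene. In bulk tissue, fewer endothelial cells and less RNA of a gene per endothelial cell cannot be told apart.

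**Figure D1:**
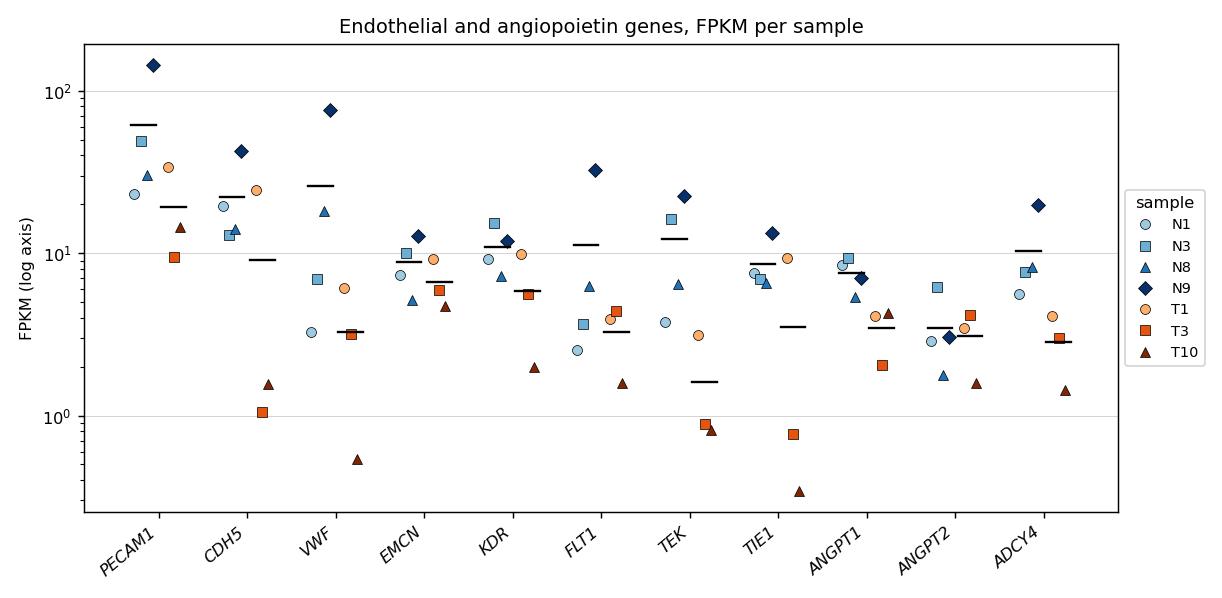
FPKM (log axis) of the 10 endothelial and angiopoietin genes and ADCY4 in each of the 4 non-tumor and 3 OSA tumor samples, 1 point per sample. TEK, ANGPT1 and ADCY4 have every tumor point below every non-tumor point, while T1 stands far above T3 and T10 for CDH5 (24.5 against 1.05 and 1.57 FPKM) and TIE1 (9.34 against 0.772 and 0.345 FPKM).

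Among the genes of the endothelial surface and junctions, *PECAM1* (ENSCAFG00000011740, chromosome 9 from 12167139 to 12223684, CanFam3.1) encodes an adhesion molecule of endothelial junctions that platelets and leukocytes carry too. It was at 23.1, 48.8, 30.3 and 144 FPKM in N1, N3, N8 and N9 and at 34.0, 9.48 and 14.4 FPKM in T1, T3 and T10. T3 and T10 lay below every non-tumor sample and T1 lay among them, so the groups overlapped. The means were 61.4 ± 55.8 FPKM (SD, n = 4) and 19.3 ± 13.0 FPKM (SD, n = 3), with a log2 fold change of -1.44 (standard error 0.71, limma p = 0.0706, adjusted p = 0.693, exact permutation p = 0.171), which did not pass. Its value was -0.91 without N9, and it passed without N1 (-1.77) and without T1 (-1.93).

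*CDH5* (chromosome 5 from 82831939 to 82864030) encodes VE-cadherin, the cadherin of endothelial adherens junctions and among the most specific endothelial markers. It was at 19.5, 13.0, 14.1 and 42.3 FPKM in N1, N3, N8 and N9 and at 24.5, 1.05 and 1.57 FPKM in T1, T3 and T10. T1 exceeded 3 of the 4 non-tumor samples, while T3 and T10 were far below all of them: T1 held 90.3% of the summed tumor FPKM, and the highest tumor sample was 23.2 times the lowest. The log2 fold change of -2.02 (standard error 0.87, limma p = 0.0450, adjusted p = 0.693) passed the threshold, with an exact permutation p of 0.229. The call depended on single samples: it remained in 1 of the 7 fits with a sample left out, that without T1 (-3.18), and *CDH5* stood at -1.36 without T3 and -1.52 without T10. It was also lost without N8 and N9 (-1.72) and without N3 and N8 (-2.54).

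*EMCN* (chromosome 32 from 22223492 to 22320300) encodes endomucin, a sialomucin of venous and capillary endothelium that is abundant in bone vessels coupled to bone formation. It was at 7.31, 9.995, 5.13 and 12.8 FPKM in N1, N3, N8 and N9 and at 9.25, 5.90 and 4.74 FPKM in T1, T3 and T10. These ranges overlapped for most of their length, and only T10 lay below the lowest non-tumor sample. The fitted difference was small, a log2 fold change of -0.34 (standard error 0.48, limma p = 0.498, adjusted p = 0.877, exact permutation p = 0.4).

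*VWF* (chromosome 27 from 38834909 to 38972738) encodes von Willebrand factor, the clotting protein stored in endothelial cells and also made by megakaryocytes. It was at 3.26, 6.93, 18.1 and 75.6 FPKM in N1, N3, N8 and N9 and at 6.11, 3.19 and 0.539 FPKM in T1, T3 and T10. It spread more widely than any other of the 10 genes, with the highest sample at 140 times the lowest, and N9 alone held 72.8% of the summed non-tumor FPKM. Its log2 fold change of -2.06 (standard error 0.96, limma p = 0.0603, adjusted p = 0.693, exact permutation p = 0.114) did not pass. It was -1.27 without N9 and -0.70 without N8 and N9, and it passed without N1 (-2.66). The summed megakaryocyte and platelet markers were 14.4, 122, 198 and 54.8 FPKM in N1, N3, N8 and N9 and 11.9, 31.3 and 51.8 FPKM in T1, T3 and T10, and single markers differed in pattern. The platelet glycoprotein *GP9* was at 56.8 FPKM in N8 and 0.255 FPKM in N9, where *VWF* was highest, while the platelet tubulin *TUBB1* was highest in N9, at 45.8 FPKM against 33.5 FPKM in N8. None of the 6 megakaryocyte and platelet genes tested was called with all samples, and their median log2 fold change was -1.50. Without N1 3 of them were called lower and without N9 2, beside 8.48% and 3.02% of all genes tested. The part of megakaryocytes and platelets in the *VWF* values was not tested.

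Of the VEGF receptors, *KDR* (chromosome 13 from 47438398 to 47643635, an interval listed with *SRD5A3*) encodes the receptor through which VEGF-A mainly signals in endothelium. It was at 9.24, 15.4, 7.23 and 11.9 FPKM in N1, N3, N8 and N9 and at 9.84, 5.61 and 1.997 FPKM in T1, T3 and T10. T1 lay inside the non-tumor range, with T3 and T10 below it. Its log2 fold change was -0.95 (standard error 0.55, limma p = 0.119, adjusted p = 0.706, exact permutation p = 0.171); it passed only in the fit without T1 (-1.37) and was -0.45 without T10.

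*FLT1* (chromosome 25 from 11231724 to 11407514, an interval listed with a further gene without a symbol) encodes a receptor that binds VEGF-A tightly and, in a soluble form, withholds it from KDR; the table gives 1 value per gene and does not separate the forms. It was at 2.52, 3.66, 6.31 and 32.4 FPKM in N1, N3, N8 and N9 and at 3.91, 4.38 and 1.58 FPKM in T1, T3 and T10. Apart from N9, which held 72.1% of the summed non-tumor FPKM, the groups overlapped, and T10 was lowest. The log2 fold change of -0.96 (standard error 0.78, limma p = 0.245, adjusted p = 0.777, exact permutation p = 0.4) shrank to -0.27 without N9 and turned to 0.012 without N8 and N9.

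Among the Tie receptors, *TEK* (chromosome 11 from 45278263 to 45376504) encodes the receptor of the angiopoietins. It was at 3.78, 16.1, 6.42 and 22.4 FPKM in N1, N3, N8 and N9 and at 3.13, 0.883 and 0.810 FPKM in T1, T3 and T10. No tumor sample reached the lowest non-tumor sample, although T1 and N1 lay close to each other. The means were 12.2 ± 8.62 FPKM (SD, n = 4) and 1.61 ± 1.32 FPKM (SD, n = 3), with a log2 fold change of -2.18 (standard error 0.66, limma p = 0.00882, adjusted p = 0.693, exact permutation p = 0.0571). *TEK* was the only one of the 10 genes that stayed past the threshold in each of the 7 fits with a sample left out, at -2.57 to -1.81. It passed narrowly without N8 and N9 too, at -1.91 with a limma p of 0.0499. Without N3 and N8, which had the highest erythroid and megakaryocyte marker levels, it was -2.13 with a limma p of 0.0533.

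*TIE1* (chromosome 15 from 16838001 to 16857488) encodes the partner receptor of TEK. It was at 7.52, 6.90, 6.57 and 13.3 FPKM in N1, N3, N8 and N9 and at 9.34, 0.772 and 0.345 FPKM in T1, T3 and T10. The pattern was that of *CDH5*: T1 was above 3 of the 4 non-tumor samples and held 89.3% of the summed tumor FPKM, while T3 and T10 were below 1 FPKM. Its log2 fold change of -1.67 (standard error 0.72, limma p = 0.0456, adjusted p = 0.693, exact permutation p = 0.229) passed. As for *CDH5*, the call remained only in the fit without T1 (-2.58) among the 7, and the value was -1.11 without T10. It was lost too without N8 and N9 (-1.49) and without N3 and N8 (-1.92).

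Of the ligands, *ANGPT1* (chromosome 13 from 8068880 to 8312114, an interval listed with a small nuclear RNA gene) encodes angiopoietin 1, the agonist of TEK that pericytes and other mesenchymal cells secrete. It was at 8.40, 9.35, 5.36 and 7.07 FPKM in N1, N3, N8 and N9 and at 4.09, 2.05 and 4.29 FPKM in T1, T3 and T10. The groups did not overlap, and T1 was as low as T10 here, unlike in *CDH5* and *TIE1*. The means were 7.55 ± 1.73 FPKM (SD, n = 4) and 3.48 ± 1.24 FPKM (SD, n = 3), with a log2 fold change of -0.95 (standard error 0.46, limma p = 0.0666, adjusted p = 0.693, exact permutation p = 0.0571), short of the threshold in both its size and its p. The value ran from -1.09 to -0.70 with a sample left out and passed in none of these fits.

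*ANGPT2* (chromosome 16 from 58306761 to 58532552, an interval listed with *MCPH1*) encodes angiopoietin 2, the ligand that endothelial cells release when vessels are remodelled. It was at 2.87, 6.17, 1.77 and 3.02 FPKM in N1, N3, N8 and N9 and at 3.45, 4.19 and 1.59 FPKM in T1, T3 and T10. The groups overlapped almost completely and the highest sample was non-tumor. The groups differed little in the fit, by a log2 fold change of -0.10 (standard error 0.53, limma p = 0.852, adjusted p = 0.970, exact permutation p = 0.914), whose sign turned without N3 (0.16) or T10 (0.20).

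*ADCY4* (chromosome 8 from 4288785 to 4303692) encodes a membrane adenylate cyclase that makes cyclic AMP. It was at 5.63, 7.64, 8.22 and 19.7 FPKM in N1, N3, N8 and N9 and at 4.10, 3.01 and 1.43 FPKM in T1, T3 and T10. As with *TEK*, the groups did not overlap, and N1 was the lowest non-tumor sample. The log2 fold change of -1.47 (standard error 0.55, limma p = 0.0235, exact permutation p = 0.0571) passed, also in 5 of the 7 fits with a sample left out, and it was lost without N9 (-1.14) or T10 (-1.18), without N8 and N9 (-1.04) and without N3 and N8 (-1.67).

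**Figure D2:**
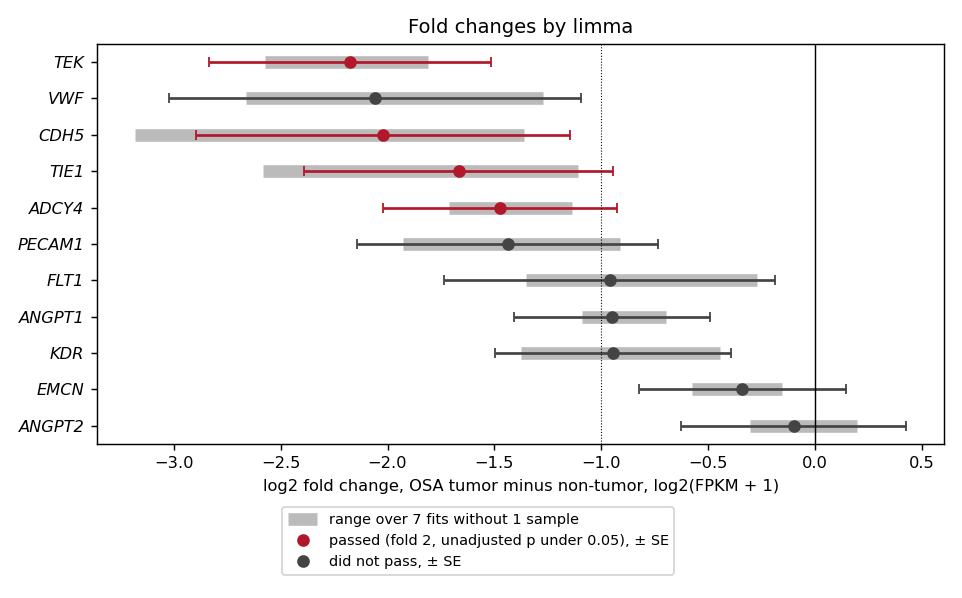
Log2 fold change (OSA tumor minus non-tumor, log2(FPKM + 1)) of each gene with its standard error, over a gray band for the range of the 7 fits without 1 sample; red points passed the threshold. TEK, CDH5, TIE1 and ADCY4 passed, and of the 11 genes only the band of ANGPT2 (-0.31 to 0.20) crosses 0.

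Of the 10 genes, *TEK* and *ANGPT1* (20.0%) had every tumor sample below every non-tumor sample, which held for 2.81% of all genes tested. The median log2 fold change of the 10 was -1.20, beside -0.02 for all genes tested, and it stayed between -1.65 and -0.94 with a sample left out. The count of genes called lower moved more: it was 3 with all samples, 5 without T1 (when *PECAM1* and *KDR* passed too), 3 without N1 (*TEK*, *PECAM1* and *VWF*, with *CDH5* and *TIE1* lost) and 1, *TEK*, without N3, N8, N9, T3 or T10. It was 1 without N8 and N9 and 0 without N3 and N8, where 103 and 99 of the 13507 genes tested were called lower, beside 483 with all samples. Of all genes tested, 4.46% were called lower without T1, 8.48% without N1, 4.15% without N3 and 0.977% without N8. The share was 3.02% without N9, 1.4% without T3 and 0.933% without T10. T1 was the highest tumor sample for 7 of the 10 genes (70.0%), beside 37.0% of all genes tested, and N9 the highest non-tumor sample for 7 of the 10 (70.0%), beside 31.9%. T1 was at or above the lowest non-tumor sample for 8 of the 10 (80.0%), which is near the 82.4% of all genes tested.

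The order of the levels differed between the groups. In non-tumor samples the mean FPKM fell from *PECAM1* (61.4) through *VWF* (26.0), *CDH5* (22.2), *TEK* (12.2), *FLT1* (11.2), *KDR* (10.9), *EMCN* (8.81), *TIE1* (8.58) and *ANGPT1* (7.55) to *ANGPT2* (3.46). In OSA tumor it fell from *PECAM1* (19.3) through *CDH5* (9.03), *EMCN* (6.63), *KDR* (5.82), *TIE1* (3.49), *ANGPT1* (3.48), *FLT1* (3.29), *VWF* (3.28) and *ANGPT2* (3.07) to *TEK* (1.61). Within single samples *PECAM1* was in the 1st place in all 7. *TEK* was in places 7, 2, 6 and 5 in N1, N3, N8 and N9 and in places 10, 9 and 8 in T1, T3 and T10, so its places did not overlap between the groups. *VWF* was in places 8, 7, 2 and 2 in the non-tumor and 6, 6 and 9 in the tumor samples, which overlapped, and its high place by the non-tumor mean was that of N8 and N9. In each group 8 of the 9 pairs of neighbours in this order differed by less than the larger of their SDs, and the exceptions were *ANGPT1* above *ANGPT2* in non-tumor, by 4.09 FPKM, and *ANGPT2* above *TEK* in tumor, by 1.47 FPKM.

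Ratios within a sample show how genes moved against each other, and depend on the scaling between samples only through the 1 FPKM added before the log. The FPKM ratio of *ANGPT2* to *ANGPT1* was 0.341, 0.660, 0.330 and 0.428 in N1, N3, N8 and N9 and 0.842, 2.04 and 0.371 in T1, T3 and T10. T1 and T3 were above every non-tumor sample and T10 was not, and angiopoietin 2 exceeded angiopoietin 1 only in T3. The mean log2 ratio was higher by 0.85 in tumor (standard error 0.55, exact permutation p = 0.171, adjusted p = 0.622 over the 14 ratios compared). The log2 ratio of *TEK* to *TIE1* differed by -0.51 (exact permutation p = 0.457) and that of *FLT1* to *KDR* by -0.02 (exact permutation p = 1). Against *CDH5* as a measure of endothelial RNA, the difference was largest for *ANGPT2* (1.92, standard error 1.24, exact permutation p = 0.229) and *EMCN* (1.68, standard error 0.98, exact permutation p = 0.229) and near 0 for *VWF* (-0.04) and *TEK* (-0.15). *CDH5* was itself low in T3 and T10, at 1.05 and 1.57 FPKM, which raises the ratios to it there. In T1 the log2 ratios of *ANGPT2* (-2.52) and *EMCN* (-1.31) to *CDH5* lay within the non-tumor range. No ratio to *CDH5* separated the groups, and the adjusted exact permutation p ran from 0.622 to 1 over the 14 ratios.

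The pathway list held 16 further symbols of VEGF and angiopoietin ligands, receptors and transducers, of which 15 were in the table and tested. *VEGFA* was called higher, none was called lower, 9 had a negative and 6 a positive log2 fold change, and the median was -0.16. *VEGFA* (chromosome 12 from 12207947 to 12225072), the hypoxia-inducible growth factor of vessels, was at 49.7, 24.7, 28.6 and 82.5 FPKM in N1, N3, N8 and N9 and at 95.4, 134 and 171 FPKM in T1, T3 and T10. All tumor samples were above all non-tumor samples, with T1 close to N9. The log2 fold change was 1.63 (standard error 0.55, limma p = 0.0154, adjusted p = 0.693, exact permutation p = 0.0571), and it passed in 6 of the 7 fits with a sample left out, the exception being that without T10 (1.43). It was 1.01, short of the threshold in its p, without N3 and N8. The FPKM ratio of *VEGFA* to its receptor *KDR* was 5.38, 1.61, 3.96 and 6.96 in N1, N3, N8 and N9 and 9.69, 23.9 and 85.8 in T1, T3 and T10. This was the only one of the 14 ratios whose groups did not overlap, with a log2 difference of 2.57 (standard error 0.90, exact permutation p = 0.0571, adjusted p = 0.622).

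**Figure D3:**
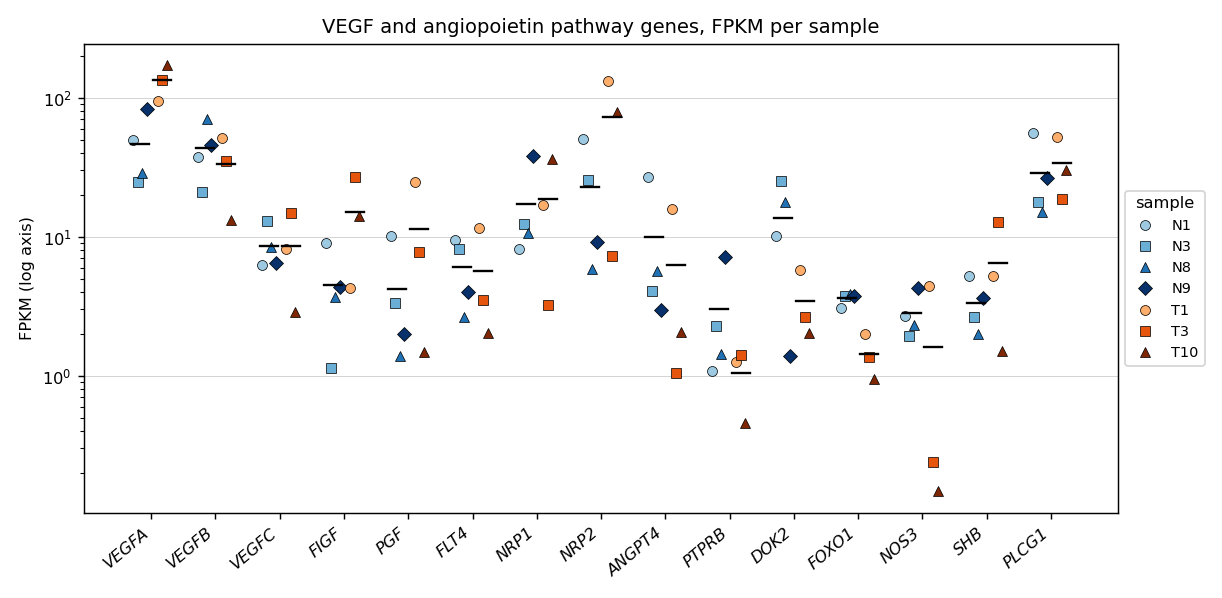
FPKM (log axis) of the 15 further VEGF and angiopoietin pathway genes in each of the 4 non-tumor and 3 OSA tumor samples, 1 point per sample. The 3 tumor points of VEGFA (95.4 to 171 FPKM) lie above its 4 non-tumor points (24.7 to 82.5 FPKM) and those of FOXO1 (0.947 to 2.01 FPKM) below (3.08 to 3.87 FPKM), and the groups overlap for the other 13 genes.

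The other ligands did not pass. *FIGF*, which encodes the lymphatic growth factor VEGF-D, had the largest positive value among them, at 8.94, 1.14, 3.68 and 4.32 FPKM in N1, N3, N8 and N9 and 4.30, 26.8 and 14.1 FPKM in T1, T3 and T10 (log2 fold change 1.45, standard error 0.71, limma p = 0.0704, adjusted p = 0.693, exact permutation p = 0.171). T3 and T10 exceeded all non-tumor samples and T1 did not, the reverse of the pattern of *CDH5*. *PGF*, placental growth factor and a ligand of FLT1, reached 24.9 FPKM in T1 and 1.49 FPKM in T10 (log2 fold change 0.94), *VEGFB* had a value of -0.45 and *VEGFC* of -0.16. *ANGPT4*, a further angiopoietin, was at 26.8 FPKM in N1 and 15.8 FPKM in T1 and between 1.05 and 5.66 FPKM in the other samples (log2 fold change -0.73). N1 and T1 thus held the highest *ANGPT4* of their groups.

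Among receptors and transducers, *NRP2*, a coreceptor for VEGF-C, ranged from 5.85 to 50.5 FPKM in non-tumor and from 7.28 to 132 FPKM in tumor samples (log2 fold change 1.34, standard error 1.02). *NRP1*, a coreceptor for VEGF-A, had a log2 fold change of -0.12, and *FLT4*, the receptor of lymphatic endothelium, one of -0.22. *PTPRB*, the endothelial phosphatase that restrains TEK, had a value of -0.78, and *DOK2*, an adaptor that binds TEK and is used by leukocytes too, one of -1.35 (limma p = 0.127, adjusted p = 0.706, exact permutation p = 0.229). *FOXO1*, a transcription factor of quiescent endothelium that TEK signalling holds inactive, was at 3.08, 3.74, 3.87 and 3.73 FPKM in N1, N3, N8 and N9 and at 2.01, 1.36 and 0.947 FPKM in T1, T3 and T10. Its groups did not overlap, and its log2 fold change of -0.94 (standard error 0.45, limma p = 0.0652, exact permutation p = 0.0571) missed the threshold, which it passed without T1 (-1.10). *NOS3*, endothelial nitric oxide synthase, was at 1.94 to 4.31 FPKM in non-tumor, at 4.41 FPKM in T1 and at 0.239 and 0.147 FPKM in T3 and T10, so that T1 held 91.9% of the summed tumor FPKM. *SHB* and *PLCG1*, which carry signals from KDR and from many other receptors, had log2 fold changes of 0.51 and 0.29.

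The wider endothelial list had 36 symbols outside the 10 genes, of which 33 were in the table and 32 were tested. *ESAM* and *MYCT1* were called lower and none was called higher, a share of 2 of 32 beside 3.58% of all genes tested called lower, 29 of the 32 had a negative log2 fold change and the median was -0.95. *ESAM*, a junction adhesion molecule, was at 8.28, 13.0, 19.1 and 27.3 FPKM in N1, N3, N8 and N9 and at 11.1, 1.17 and 1.11 FPKM in T1, T3 and T10 (log2 fold change -2.11, standard error 0.71, limma p = 0.0155, adjusted p = 0.693, exact permutation p = 0.114). T1 was above N1 again, with T3 and T10 far below. The call of *ESAM* was lost without T3 (-1.70), T10 (-1.68), N8 and N9 (-1.58) or N3 and N8 (-2.09). *MYCT1*, an endothelial membrane protein, was at 4.97 to 36.7 FPKM in non-tumor and 2.56 to 5.81 FPKM in tumor samples (log2 fold change -1.46, standard error 0.65, limma p = 0.0497, adjusted p = 0.693, exact permutation p = 0.171), and its call was lost in 6 of the 7 fits with a sample left out and held in 4 of the 13 other alternatives.

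T1 was the highest tumor sample for 27 of these 32 genes (84.4%), and for all 32 (100%) it was at or above the lowest non-tumor sample, which held for 82.4% of all genes tested. The count called lower was 17 without T1 and 0 without T3 or T10, and it was 5 without N1, 3 without N3 or N9 and 1 without N8. Of all genes tested, 4.46% were called lower without T1, 1.4% without T3, 0.933% without T10, 8.48% without N1, 4.15% without N3, 3.02% without N9 and 0.977% without N8. The summed FPKM of the 33 genes in the table were 350, 356, 347 and 445 in N1, N3, N8 and N9, and 486, 145 and 104 in T1, T3 and T10. Those of the 10 genes were 87.5, 136, 101 and 364 in the non-tumor and 108, 37.5 and 31.9 in the tumor samples. In both sums T1 was within or above the non-tumor range and T3 and T10 were below it. For 7 of the 10 genes (70.0%) and 20 of the 32 (62.5%) both T3 and T10 were below every non-tumor sample, beside 11.6% of all genes tested, a description chosen after these values were seen.

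**Figure D4:**
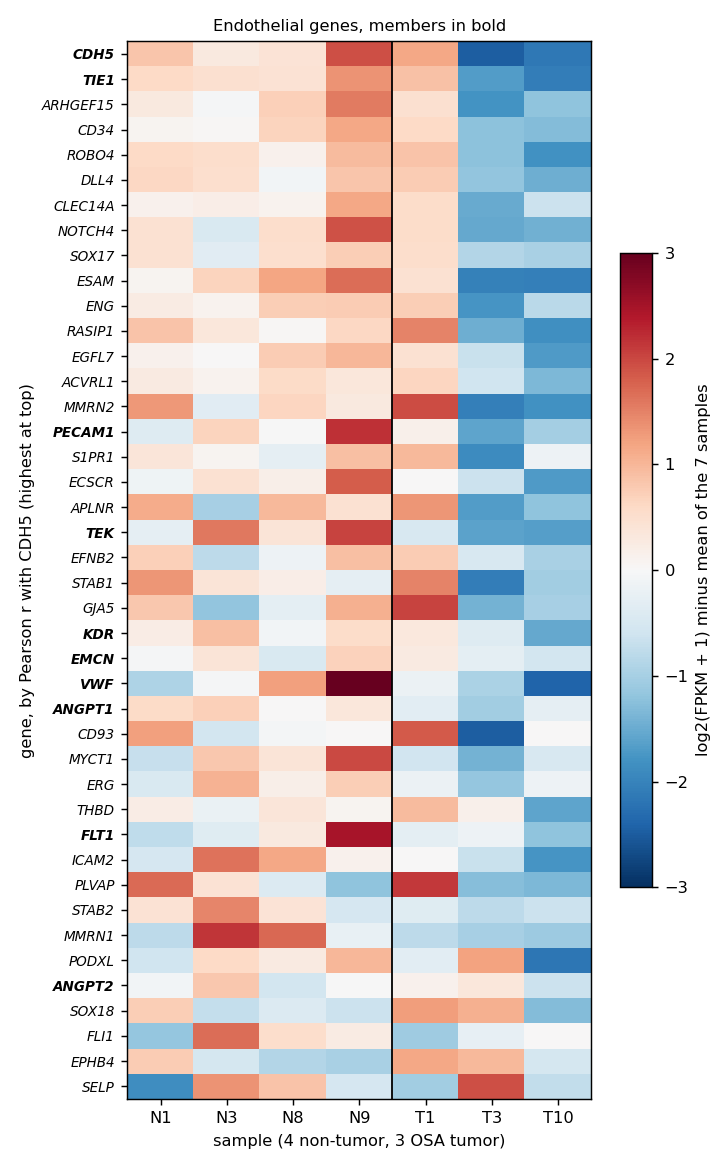
Log2(FPKM + 1) minus its mean over the 7 samples (color) for the 10 genes (bold) and the other endothelial genes, ordered by Pearson correlation with CDH5 from the top; columns are the 4 non-tumor and 3 OSA tumor samples. Toward the top, where CDH5, TIE1 and ARHGEF15 stand, T1 resembles the non-tumor columns and T3 and T10 are low. The order by likeness to CDH5, which has this pattern, places such genes there.

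Over the 7 samples the genes fell into pairs of like profile, given as a description, since the samples share a group structure and differ in tissue makeup. Of the 45 pairs among the 10 genes, Pearson r of log2(FPKM + 1) was highest for *CDH5* with *TIE1* (0.984), followed by *FLT1* with *VWF* (0.946), both highest in N9, and *PECAM1* with *TEK* (0.926). It was lowest for *FLT1* with *ANGPT2* (0.0717), and the median r with the other 9 genes was 0.180 for *ANGPT2* and 0.822 for *PECAM1*. Among the 13506 other genes tested, *TIE1* was the 3rd most like *CDH5*. The 8 most like it outside the 10 genes, with a symbol, were *MLXIP* (0.992), *P2RY1* (0.990), *DIS3L2* (0.984), *NOS3* (0.983), *KANK3* (0.981), *ILKAP* (0.973), *RERE* (0.973) and *GGA3* (0.972). All 8 were lowest in T3 and T10, and only *NOS3* was on a list used here. The profile of *CDH5* was thus not limited to the listed endothelial genes. Of the other endothelial genes, 16 of 32 (50.0%) had an r of at least 0.8 with *CDH5*, beside 500 of 13506 (3.7%).

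Markers of other vascular cells and of cells that share genes with endothelium were set beside these values. Of 9 pericyte and smooth muscle genes none was called (median log2 fold change -0.25), and their summed FPKM were 142, 99.4, 211 and 325 in N1, N3, N8 and N9 and 341, 119 and 278 in T1, T3 and T10. Among the non-tumor samples N9 was the highest for 5 of these 9 genes, N1 for 3 and N8 for 1. The smooth muscle gene *TAGLN* held 237 of the 278 FPKM of T10. Of 3 lymphatic genes tested *PDPN*, which osteoblast lineage cells and tumors carry too, was called higher (log2 fold change 1.42, standard error 0.54, limma p = 0.0278, adjusted p = 0.693, exact permutation p = 0.0571), while *PROX1*, which defines lymphatic endothelium, was between 0.0208 and 1.74 FPKM and below the filter. The call of *PDPN* was lost without N3 (1.26), N8 (1.27), T1 (0.96), N8 and N9 (1.33) or N3 and N8 (0.96). Of 7 leukocyte and macrophage genes none was called (median -0.91).

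Of 11 skeletal muscle genes 10 were called lower (median log2 fold change -6.64), of 10 erythroid genes 7 (median -3.68) and of 5 adipocyte genes 4 (median -2.36), and none of these was called higher. With a sample left out the counts ran from 6 (without N8) to 11 for muscle, from 0 (without N8) to 10 for erythroid genes, with 1 without N3, T1, T3 or T10, and from 2 (without N3, N8, N9, T1, T3 or T10) to 5 (without N1) for adipocyte genes. Of 8 osteoblast genes none was called lower, and their median log2 fold change was 1.56. N1 was the non-tumor sample with the lowest muscle and erythroid markers, and *TEK*, *PECAM1*, *VWF* and *FLT1* were lowest there among the non-tumor samples, as was *ADCY4*, while the other 6 of the 10 genes were not. T1 had 3622 FPKM of osteoblast markers, the highest of all samples, and also the highest sum of the wider endothelial list. Of that sum of 486 FPKM, *PLVAP* alone held 117 FPKM, against 10.7 of the 445 FPKM in N9, so the rank of T1 leans on this gene. The part of tissue makeup in the values of the 10 genes was not tested.

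**Figure D5:**
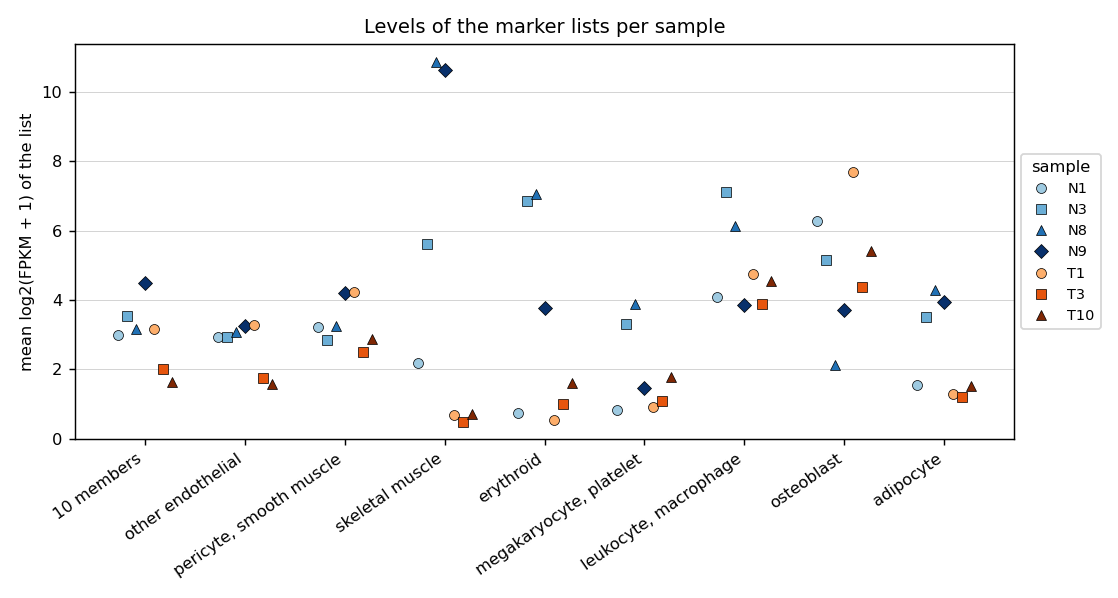
Mean log2(FPKM + 1) of each marker list (vertical axis) in each of the 4 non-tumor and 3 OSA tumor samples, 1 point per sample. The endothelial lists vary far less between samples than the skeletal muscle list, which is high in N8 and N9, and T3 and T10 are the lowest points of both endothelial lists.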

How the data were processed

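RNAseq values of 7 dog tissue samples were used. The authors trimmed reads with Trim Galore (phred above 30), used Tophat2 with the Ensembl iGenomes annotation to align them to CanFam3.1, and deposited FPKM values per gene and sample from Cufflinks/Cuffdiff. Versions, the use of strand in counting (the library was stranded) and the normalization between libraries are not given in the sources used here. Reads of overlapping genes may be shared. Gene intervals came from a second deposited table, with 1 added to each start. Its group means, fold changes, test statistics, p-values and q-values are the authors' own comparison and were not used.

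Samples were grouped by tissue label (4 non-tumor, 3 OSA tumor) and compared unpaired. The analysis used log2(FPKM + 1), genes averaging under 1 FPKM were left out (11073 of 24580), and limma 3.58.1 in R 4.3.3 was fitted with a mean-variance trend to the remaining 13507 genes and tested on simulated data. Permutation tests were exact and two-sided. No counts were used, so depth was read only relative to N1, from the whole-fragment steps between low FPKM values, and no counting intervals are given. Tables were handled in Python 3.11.15 with numpy 2.4.6 and pandas 2.3.3, and figures drawn with matplotlib 3.10.9.

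The 10 genes and all lists were chosen with earlier results of these data known. Genes named were the 10, *ADCY4*, the pathway list, genes of the other lists that passed or mark a cell type, and the 8 most like *CDH5*. A call among the osteoblast markers is not reported here. Genes singled out otherwise were chosen after their values were seen. Alternatives were pseudocounts of 0.1 and 0.01, no filter, a filter of 1 FPKM in at least 3 samples, equal sums, median ratio and quantile scaling, no trend, arrayWeights, the sample number as a replicate block (fixed or random) and each sample left out.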

Additional observations from a re-analysis of the deposited data

Results flagged for a closer look

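In a group of 4 samples, a value was picked out where its gap to the nearest other sample was a larger part of the group's whole range than Dixon's 95% critical value. Of 49 quantities examined in the non-tumor group 4 met this. Genes were examined as FPKM, without a log, and ratios on the log2 scale. The rule picks out about 1 in 20 by chance for independent, normally distributed values. FPKM of related genes need not be such values, so the 4 cannot be set against that rate. The 3 tumor samples are too few for it. *FLT1* was at 32.4 FPKM in N9, with a gap of 0.873 of the range. *TIE1* was at 13.3 FPKM in N9 and *NRP1* at 38.0 FPKM in N9, each with a gap of 0.86 of the range. *ANGPT4* was at 26.8 FPKM in N1, with a gap of 0.888 of the range.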

How the results depend on the processing

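The median log2 fold change of the 10 genes kept its sign under every alternative tried. The count of the 10 called lower was 1 with no filter on low values, 0 with the fixed replicate block, 1 without N8 and N9, 0 without N3 and N8 (both pairs were chosen after seeing the data, by their muscle and by their erythroid and megakaryocyte markers), 4 with the random replicate block and 1 to 5 with a sample left out. Over all genes tested the calls numbered 1857 (826 higher, 1031 lower) with arrayWeights, 241 (142 and 99) with the fixed replicate block, 1062 (533 and 529) with the random replicate block, 184 (81 and 103) without N8 and N9 and 208 (109 and 99) without N3 and N8. With a sample left out they ran from 319 to 1997, from 187 to 852 higher and from 126 to 1145 lower. Rescaling to equal sums moved the median of all genes to 0.12 and the calls to 271 higher and 493 lower. Of the 32 wider endothelial genes, 5 were called lower with pseudocounts of 0.1 and 0.01, beside 583 and 591 of all genes tested. With arrayWeights 8 were, with the random replicate block 4 and with the fixed replicate block 1. Equal sums, median ratio and quantile scaling and no trend each left 1, beside 413 to 493 of all genes tested.

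*TEK* was at -1.70 and not called with the fixed replicate block. *CDH5* lost its call with no filter, quantile normalization (-1.84) and the fixed replicate block (-1.22), *TIE1* with no filter, equal sums (-1.67) and the fixed replicate block (-0.94), and *ADCY4* with equal sums (-1.36) and the fixed replicate block (-0.74). *ESAM* (-1.15) and *MYCT1* (-1.07) lost theirs with the fixed replicate block and *PDPN* with equal sums (1.59), and *ANGPT1* passed with the random replicate block (-1.08) and *FOXO1* with arrayWeights (-1.02). No erythroid or adipocyte gene was called with the fixed replicate block. *VWF* passed with pseudocounts of 0.1 (-2.51) and 0.01 (-2.59), equal sums (-1.97) and arrayWeights (-2.29), and was at -0.09 with the fixed replicate block. *FLT1* turned to 0.34 with the fixed replicate block and 0.012 without N8 and N9, and *ANGPT2* ran from -0.31 to 0.20 with a sample left out. The log2 ratio of *FLT1* to *KDR* turned to 0.030 with equal sums and 0.046 with quantile normalization and ran from -0.44 to 0.62 with a sample left out. That of *TIE1* to *CDH5* was -0.067 at a pseudocount of 0.01. With a sample left out, *TEK* to *TIE1* ran from -0.87 to 0.019, *TEK* to *CDH5* from -0.63 to 0.62, *VWF* to *CDH5* from -0.81 to 0.62 and *ADCY4* to *CDH5* from -0.17 to 1.47. The cause was not tested, other than that fits without samples hold fewer samples.

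Only the numbers 1 and 3 occur in both groups, so the replicate block rests on 2 pairs. Deviations from the group means correlated at 0.42 (N1 and T1) and 0.21 (N3 and T3), and between -0.27 and 0.14 for samples of different number; the pairing is a hint from the data, not given by the labels. Depth is known only as a ratio to N1, so the counting error of values under 1 FPKM, such as those of *TEK*, *TIE1* and *VWF* in the tumors, is unknown.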
